A study of Saccharomyces cerevisiae with 4 samples.

Results

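The 34 genes described here encode the aminoacyl-tRNA synthetases of budding yeast, Saccharomyces cerevisiae. They were taken by name from a list, matched to the array by open reading frame, and are 34 of the 6256 genes on the array. Of these, 13 encode enzymes that work in mitochondria (MSE1, MSD1, MSF1, MSK1, MSM1, MSR1, MST1, MSW1, MSY1, ISM1, NAM2, SLM5 and DIA4). The other 21 encode cytosolic enzymes, and 5 of them (ALA1, GRS1, HTS1, VAS1 and YNL247W) are known to supply both compartments from 1 gene. The rule for members and classes uses gene names only, though it was written with earlier results of these data known.

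An aminoacyl-tRNA synthetase joins an amino acid to its tRNA, the step that gives the genetic code its meaning. Yeast cells make proteins in the cytosol, where most of the proteome arises, and in mitochondria, where a few respiratory chain subunits are made from mitochondrial DNA. Many amino acids therefore have separate nuclear genes for a cytosolic and a mitochondrial enzyme. Glycerol, unlike glucose, is used by yeast through respiration, so growth on it needs mitochondrial translation.

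Transcripts were measured on 2-colour oligonucleotide arrays in the parental strain BY4741 and in DampERG12 mutants. A DAmP allele disturbs the 3' end of a gene and lowers its transcript, and here it affects ERG12, the gene of mevalonate kinase, which acts early in the synthesis of sterols and other isoprenoids. Per the labels the mutants kept 10% of the parental activity. Cells of both strains were grown in synthetic YNB medium with glucose at 20 g/L and 30 °C, washed, and moved to the same medium with glucose or glycerol at 20 g/L. The labels differ on what followed: 1 h in the new medium, growth from an optical density of 0.1 to 0.5, or 1 h in YPD at pH 2.5. Which of these applied cannot be told apart here, and whether the mutants were 1 clone is not given in the sources used here.

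Each of 4 comparisons was made on 2 arrays, described in the labels as biological duplicates: glycerol over glucose within the parental strain, the same within the mutant, and the mutant over the parental strain on each carbon source. The first-named RNA carried the dye Cy5 and the second Cy3 on every array, without dye swap. Any dye effect of a gene thus remains in each comparison, but cancels in the difference between the mutant and parental glycerol responses if it is constant. Values are log2 ratios of Cy5 over Cy3, relative to the average gene on the array. Calls rest on a limma fit over all 8 arrays, with p-values adjusted by Benjamini-Hochberg over the 5343 genes tested and a threshold of 0.05. All 34 synthetase genes passed the filter on dim spots. They were well above background in all 16 channels, with the exception of MSY1, which was so in 15, and none was saturated.

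Log ratios of all tested genes correlated between replicate arrays at r = 0.953 and 0.898 in the parental and mutant glycerol responses, and at 0.716 and 0.511 in the strain comparisons in glucose and glycerol. ERG12 was too dim to test: 1 of 8 mutant and 5 of 8 parental channels were well above background. All 8 arrays lay on 1 slide and were scanned once. Each comparison had its own slide column, so column and comparison cannot be told apart.

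In the parental strain, all 21 cytosolic and dual-compartment synthetase genes fell in glycerol relative to glucose. Their median log2 ratio was -1.36, against -0.01 for all tested genes, and they ranged from -2.18 for MES1 to -0.34 for GLN4. Lower calls made up 30.5% of all tested genes. Of the 21 genes, 19 fell by at least 2-fold, a size reached by 9.28% of all tested genes. GLN4 (glutaminyl-tRNA synthetase) and DPS1 (cytosolic aspartyl-tRNA synthetase) did not reach this size, DPS1 only narrowly, with a log2 ratio of -0.999. GLN4 was also nearest the threshold (adjusted p = 0.049) and lost its call without 1 array in 6 of the 8 cases, with the slide row as a block (adjusted p = 0.065) and with only genes above background in all 16 channels (adjusted p = 0.0504).

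The gene that fell the most was MES1, which encodes cytosolic methionyl-tRNA synthetase. Its log2 ratio was -2.18 on array 1 and -2.18 on array 2. Both arrays were thus alike, and the mean was -2.18 ± 0.13 (SE, n = 2 arrays), or 4.53-fold lower (adjusted p = 5.8e-06).

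ILS1, the cytosolic isoleucyl-tRNA synthetase gene, had ratios of -1.74 and -1.80, a mean of -1.77 ± 0.13 (SE), or 3.41-fold lower (adjusted p = 1.2e-05). YHR020W, which encodes prolyl-tRNA synthetase, had ratios of -1.90 and -1.62 and a mean of -1.76 ± 0.17 (adjusted p = 5.3e-05). YDR341C, which encodes cytosolic arginyl-tRNA synthetase, had ratios of -1.72 and -1.73 and a mean of -1.73 ± 0.17 (adjusted p = 6.3e-05). In each of these 3 genes both arrays were far below 0 and lay closer to each other than to 0.

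The 13 mitochondrial synthetase genes moved the other way or little. In the parental strain 9 of the 13 rose in glycerol, MSW1 fell, and MSE1, MSF1 and MSY1 were not called. Higher calls made up 31.4% of all tested genes. The median of the 13 genes was 0.36 and their range was -0.35 to 0.85. The changes were small beside those of the cytosolic genes: none of the 13 reached 2-fold in either direction. Without the offset added to the signals, which pulls ratios of dim genes towards 0, the mitochondrial median was 0.60.

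MSR1, the mitochondrial arginyl-tRNA synthetase gene, had ratios of 0.68 and 1.02. Its mean of 0.85 ± 0.12 (SE) was the highest of the 34 genes, or 1.80-fold higher in glycerol (adjusted p = 0.00049). NAM2 encodes mitochondrial leucyl-tRNA synthetase, which is also known to act in splicing of mitochondrial introns.

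The ratios of NAM2 were 0.88 and 0.62, with a mean of 0.75 ± 0.14 (adjusted p = 0.0017). DIA4, the gene of the probable mitochondrial seryl-tRNA synthetase, had ratios of 0.75 and 0.53 and a mean of 0.64 ± 0.11 (adjusted p = 0.0013). MSK1, the mitochondrial lysyl-tRNA synthetase gene, had ratios of 0.72 and 0.53 and a mean of 0.62 ± 0.18 (adjusted p = 0.016). All of these arrays were above 0, and above every array of every cytosolic gene in this comparison.

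The smaller increases were those of MSD1 (0.52), SLM5 (0.44), MSM1 (0.36), MST1 (0.34) and ISM1 (0.32), which serve aspartate, asparagine, methionine, threonine and isoleucine. MSW1, the mitochondrial tryptophanyl-tRNA synthetase gene, was the exception. Its ratios were -0.56 and -0.15, with a mean of -0.35 ± 0.13 (adjusted p = 0.045), and its call was lost without 1 array in 5 of the 8 cases and with the slide row as a block (adjusted p = 0.060).

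The count of 9 mitochondrial genes called higher became 3 without parental array 1 and 5 without parental array 2. Centring each array on its median, without loess, left 2. Centring on the spike-in RNA lowered the median of all genes to -2.17 and turned all 9 to lower. The 21 cytosolic and dual-compartment genes were lower under each of these scalings. Relative to the median of all genes under spike-in centring, 21 of the 21 were below and 12 of the 13 mitochondrial genes above. Because equal amounts of RNA were labelled, a change in total RNA per cell is not seen by these ratios.

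**Figure D1:**
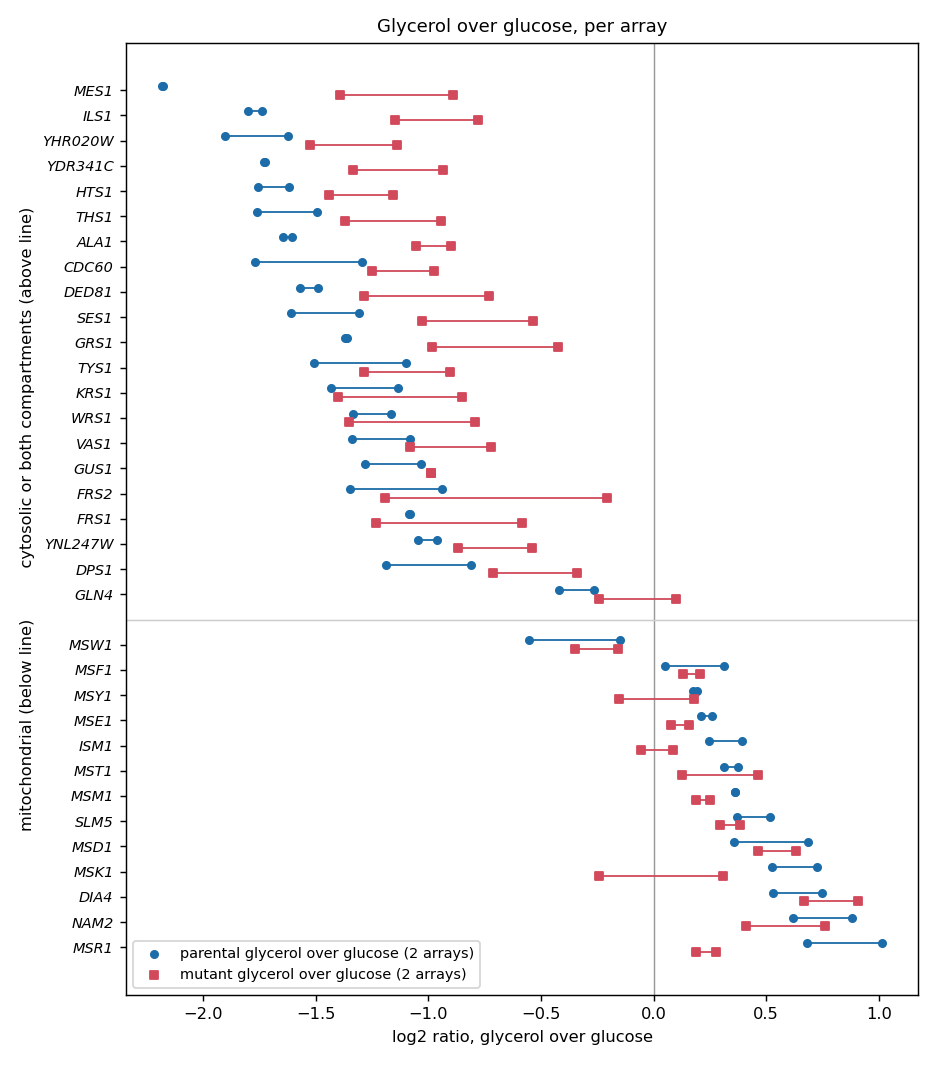
Log2 ratio of glycerol over glucose (horizontal axis) for each of the 34 synthetase genes, with 1 point per array (circles: parental strain, squares: mutant) and a line joining the 2 arrays of a comparison. Parental ratios run from -2.18 for MES1 up to 1.02 for MSR1, and most cytosolic genes (upper block) lie left of the mitochondrial genes (lower block), with an overlap near 0 that includes GLN4 and MSW1.

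In the mutant, 19 of the 21 cytosolic and dual-compartment genes fell in glycerol. Lower calls made up 21.9% of all tested genes in this comparison. The median of the 21 genes was -0.99, with 10 genes lower by at least 2-fold, a size reached by 5.39% of all tested genes. The genes not called were GLN4, at 0.10 and -0.24 on the 2 arrays, and FRS2, the gene of the alpha subunit of cytosolic phenylalanyl-tRNA synthetase. FRS2 had ratios of -0.21 and -1.19, so its arrays differed by more than for any other of the 21 genes.

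YHR020W had ratios of -1.14 and -1.52 in the mutant, with a mean of -1.33 ± 0.17 (SE, n = 2 arrays), 2.52-fold lower (adjusted p = 0.00045). HTS1, which encodes histidyl-tRNA synthetase of both compartments, had ratios of -1.16 and -1.44 and a mean of -1.30 ± 0.14 (adjusted p = 0.00021). These 2 genes were lowest on both mutant arrays.

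THS1, the cytosolic threonyl-tRNA synthetase gene, had ratios of -0.94 and -1.37 and a mean of -1.16 ± 0.14 (adjusted p = 0.00044). MES1, the lowest gene in the parental strain, had ratios of -0.89 and -1.39 and a mean of -1.14 ± 0.13 (adjusted p = 0.00029). In all 4 genes array 1 was nearer 0 than array 2.

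Of the mitochondrial genes, 4 of 13 rose in the mutant, namely DIA4, NAM2, MSD1 and SLM5. Higher calls made up 24.7% of all tested genes. No mitochondrial gene was called lower, MSW1 included (-0.25, adjusted p = 0.15). In the limma fit 5 of the 13 had an unadjusted p under 0.05. The stricter adjusted threshold was passed by 46.6% of all tested genes, in either direction. The median was 0.22, with a range of -0.25 to 0.79.

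DIA4 had ratios of 0.67 and 0.91 in the mutant and a mean of 0.79 ± 0.11 (SE), 1.73-fold higher (adjusted p = 0.00075). NAM2 had ratios of 0.76 and 0.41 and a mean of 0.58 ± 0.14 (adjusted p = 0.0086). Both genes were above 0 on every array of both strains' glycerol responses, as were MSE1, MSD1, MSF1, MSM1, MSR1, MST1 and SLM5.

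MSD1, the mitochondrial aspartyl-tRNA synthetase gene, had ratios of 0.63 and 0.46 and a mean of 0.55 ± 0.12 (adjusted p = 0.0073). SLM5, the mitochondrial asparaginyl-tRNA synthetase gene, had ratios of 0.38 and 0.29 and a mean of 0.34 ± 0.11 (adjusted p = 0.032). Without mutant array 1, 1 mitochondrial gene was called higher. Under spike-in centring all 4 became lower, and 9 of the 13 mitochondrial genes were above the median of all genes, which moved to -1.49.

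The 14 pairs of a cytosolic and a mitochondrial gene for the same amino acid, covering 13 amino acids, gave the comparison at matched function. Phenylalanine counts with 2 pairs, since FRS1 and FRS2 encode the subunits of the cytosolic enzyme and MSF1 the mitochondrial one. In the parental glycerol response the mitochondrial gene was above its cytosolic partner on both arrays in 14 of 14 pairs, by a median log2 gap of 1.94. The genes were called in opposite directions in 9 pairs, which are the 9 mitochondrial genes called higher, since every cytosolic partner was called lower.

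The largest gap between oppositely called genes was that of arginine, where YDR341C and MSR1 were 2.40 apart on array 1 and 2.75 apart on array 2. Their mean gap was 2.58 ± 0.24 (SD, n = 2 arrays), a 5.96-fold change of 1 transcript relative to the other. Methionine followed, with MES1 and MSM1 apart by 2.54 on each array. Leucine (CDC60 and NAM2) had gaps of 2.17 and 2.39, with a mean of 2.28.

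Serine (SES1 and DIA4) had gaps of 2.05 and 2.14, with a mean of 2.09. Isoleucine (ILS1 and ISM1) lay just behind, with a mean of 2.09. The narrowest gap was that of tryptophan, where WRS1 fell by 1.25, MSW1 fell by 0.35, and the genes were 0.90 apart.

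In the mutant the mitochondrial gene was again above its partner on both arrays in 14 of 14 pairs, by a median gap of 1.13. Opposite calls were made in 4 pairs, those of the 4 mitochondrial genes called higher. Leucine had gaps of 1.73 and 1.66 (mean 1.70), with CDC60 at -1.11 and NAM2 at 0.58. Serine had gaps of 1.20 and 1.93 (mean 1.57), with SES1 at -0.78 and DIA4 at 0.79.

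Asparagine (DED81 and SLM5) had gaps of 1.11 and 1.58, with a mean of 1.35. Aspartate (DPS1 and MSD1) had gaps of 0.97 and 1.18, with a mean of 1.07. Gaps set 1 array's genes against each other, so their order within a pair does not depend on the centring of that array. The opposite calls do depend on it. With median centring 2 mitochondrial genes were called higher in the parental strain. With spike-in centring 0 were called higher in either strain. The size of gaps did vary with the processing. Between the class medians of the parental response it was 1.72, against 2.09 without the offset and 2.20 with median centring. In the mutant these were 1.21, 1.36 and 1.11.

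**Figure D2:**
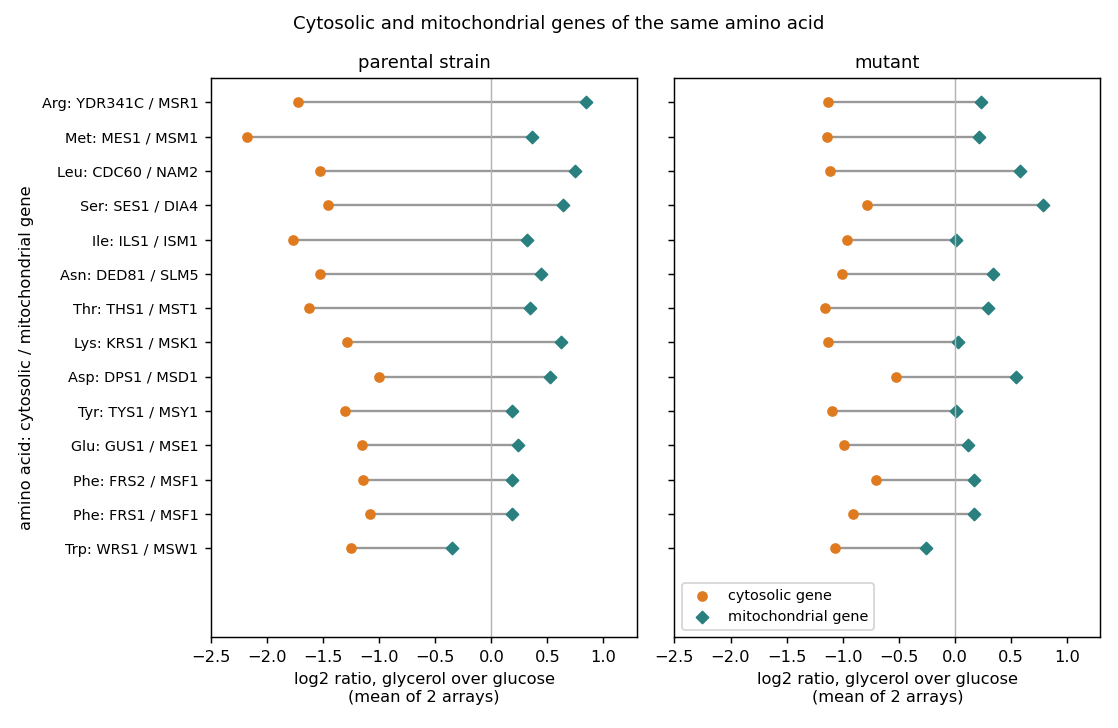
Mean log2 ratio of glycerol over glucose (horizontal axis) of the cytosolic gene (circle) and the mitochondrial gene (diamond) for each of 14 pairs, in the parental strain (left) and the mutant (right), ordered by the parental gap. The diamond is right of the circle in 14 of 14 pairs in both panels, and the median gap is 1.94 on the left and 1.13 on the right.

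The replicate arrays of the mutant glycerol response were set apart by a shift that ran through the cytosolic and dual-compartment genes. Array 1 was above array 2 in 21 of 21 of them, by a median of 0.39. The mitochondrial genes differed by a median of 0.09 and all tested genes by 0.01. The median of the 21 genes was -0.79 on array 1 and -1.23 on array 2. In the parental strain the corresponding medians were -1.36 and -1.37, and array 1 was above array 2 in 8 of 21 genes. Mutant over parental in glycerol, whose arrays also hold mutant glycerol RNA, showed the shift as well: array 1 was above array 2 in 18 of 21 genes, by a median of 0.28. In mutant over parental in glucose, array 1 was above array 2 in 1 of 21 genes, by a median of -0.23. Mutant glucose RNA is the first-named RNA there and the second-named in the mutant glycerol response. The source of the shift was not tested.

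**Figure D3:**
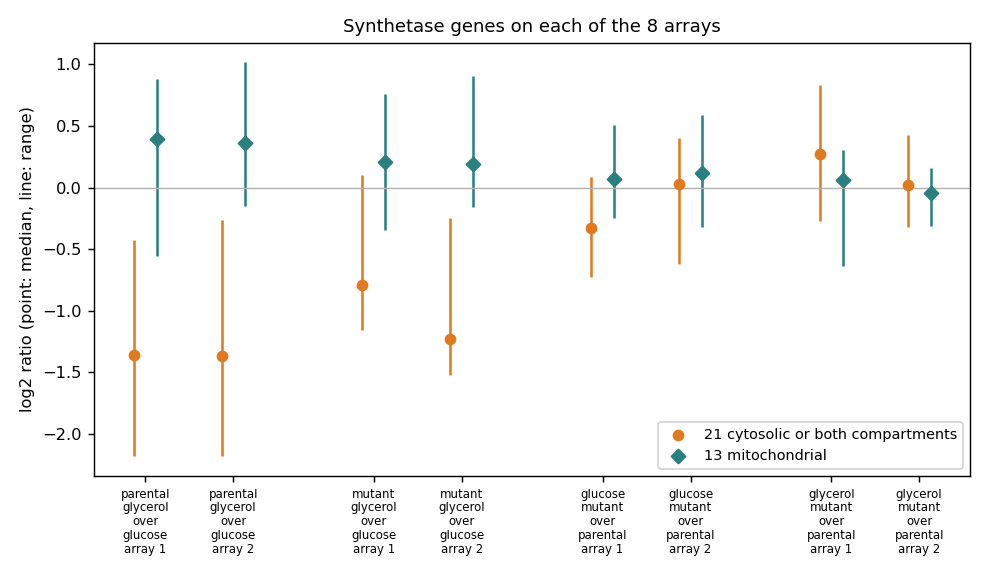
Log2 ratio (vertical axis) of the 21 cytosolic and dual-compartment genes (circles) and the 13 mitochondrial genes (diamonds) on each of the 8 arrays; the point is the median and the line runs from the lowest to the highest gene. The cytosolic median is -1.36 and -1.37 on the parental glycerol arrays and -0.79 and -1.23 on the mutant ones.

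The difference of the glycerol responses, mutant minus parental, had a median of 0.43 on the log2 scale over the 21 cytosolic and dual-compartment genes and was positive in 21 of 21. All tested genes had a median difference of 0.01, and 50.8% of them were positive. Over all tested genes the response itself was narrower in the mutant. Its quartiles were -0.31 and 0.38, against -0.44 and 0.52 in the parental strain. Whether the 21 genes differ in this from other genes that fell was not tested. A larger median difference, 1.14, was that of the 6 cytosolic elongation genes described below. Of these 0 were called, and YEF3 went the other way, at -0.25. In the limma contrast only MES1 was called among the 34 genes, and 0.861% of all tested genes were called in this direction. At an unadjusted p under 0.05 there were 7 of the 21 genes, a threshold at which all tested genes were not counted. Both mutant arrays lay above both parental arrays in 16 of the 21 genes, which was so in 25.9% of all tested genes. The 5 genes whose arrays overlapped were FRS1, FRS2, KRS1, TYS1 and WRS1. Without mutant array 1 the median difference was 0.24.

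For MES1 the parental arrays were at -2.18 and -2.18 and the mutant arrays at -0.89 and -1.39, so the strains did not overlap. The difference was 1.04 ± 0.18 (SE), a 2.05-fold smaller decrease in the mutant, with a 95% interval of 0.62 to 1.46 (adjusted p = 0.041). Over 16 alternatives the difference ran from 0.79 to 2.08, with adjusted p between 0.00015 and 0.24, and it was called in 9. It was not called without either parental array, without mutant array 1, or without either array of the glucose strain comparison. It was also not called with the slide row as a block (adjusted p = 0.061) or with Agilent's log ratios (adjusted p = 0.066).

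ILS1 had the next largest difference, 0.81 ± 0.18 (adjusted p = 0.060). ALA1, the alanyl-tRNA synthetase gene of both compartments, had a difference of 0.65 ± 0.14 (adjusted p = 0.058). SES1, the cytosolic seryl-tRNA synthetase gene, had a difference of 0.68 ± 0.21 (adjusted p = 0.12). These 3 were named after their values were seen, and none passed the threshold.

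For the 13 mitochondrial genes the median difference was -0.12, and 10 were negative. The limma contrast called 0 of them, against 1.87% of all tested genes in either direction, and 2 had an unadjusted p under 0.05. No share of all tested genes was counted at the unadjusted threshold. Both mutant arrays lay below both parental arrays in 5 of 13 (ISM1, MSE1, MSK1, MSM1 and MSR1), against 23.9% of all tested genes. The lowest differences were -0.61 ± 0.17 for MSR1 (adjusted p = 0.098) and -0.59 ± 0.26 for MSK1 (adjusted p = 0.23). DIA4 had the highest, at 0.15 (95% interval -0.20 to 0.51). Under spike-in centring the median of all genes in this contrast was 0.81 and that of the mitochondrial genes 0.41, so the sign of the mitochondrial median turned, while the 21 other genes kept theirs with a median of 1.47.

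The same difference can be read from the strain comparisons, as glycerol minus glucose. That gave a median of 0.39 for the 21 genes and -0.12 for the 13 mitochondrial genes, on 4 other arrays. Those arrays hold the same 4 kinds of RNA, and whether they hold the same extracts is not given in the sources used here. Deviations of same-row arrays correlated between the readings at 0.763 where both held mutant glycerol RNA on the same side. With mutant glucose RNA on opposite sides they correlated at -0.449. For parental RNA the values were 0.137 and -0.246. Independence of the 2 readings is thus not shown. The median of the 21 genes was -0.33 in glucose and 0.27 in glycerol on array 1, but 0.03 and 0.02 on array 2. The 0.39 thus rested mainly on array 1 of each strain comparison.

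**Figure D4:**
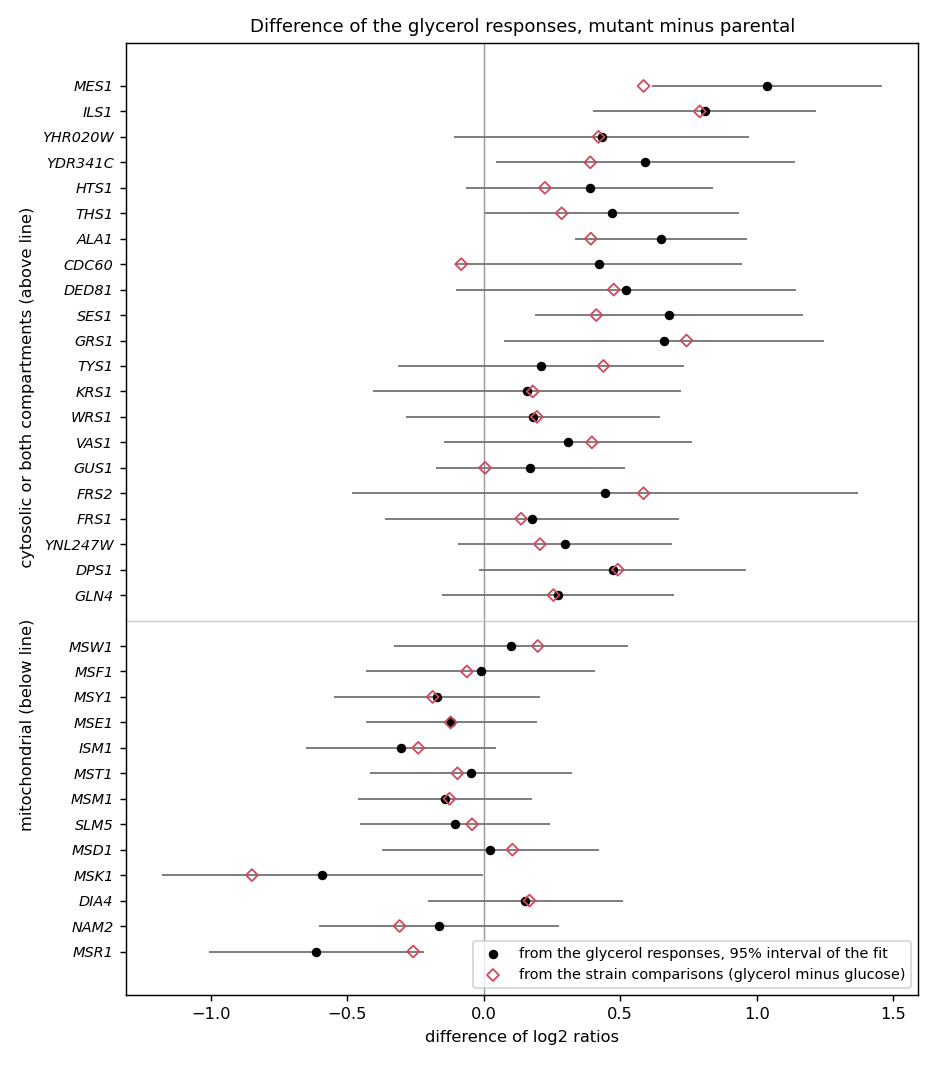
Difference of log2 glycerol responses, mutant minus parental (horizontal axis), for the 34 synthetase genes: filled points from the glycerol arrays with the fit's 95% interval, open diamonds from the strain comparisons (glycerol minus glucose, no interval). All 21 filled points in the upper block are right of 0, with MES1 farthest at 1.04, and 10 of 13 in the lower block are left of 0.

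Between the strains in glucose, 2 of the 34 genes were called, both lower in the mutant, and lower calls made up 3.54% of all tested genes. ILS1 had ratios of -0.73 and -0.62, with a mean of -0.67 ± 0.13 (SE, n = 2 arrays), 1.60-fold lower (adjusted p = 0.022). ALA1 had ratios of -0.44 and -0.49, with a mean of -0.46 ± 0.10 (adjusted p = 0.032). Both calls were lost without either glucose array.

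Of the synthetase genes not called, TYS1, MES1 and VAS1 had both glucose arrays below -0.4. This cut was chosen after the values were seen, and the share of all tested genes below it was not counted. TYS1, the cytosolic tyrosyl-tRNA synthetase gene, was at -0.55 and -0.47 (adjusted p = 0.098). MES1 was at -0.49 and -0.45 (adjusted p = 0.069), and VAS1, the valyl-tRNA synthetase gene of both compartments, at -0.47 and -0.41 (adjusted p = 0.098).

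The median of the 21 genes in glucose was -0.33 on array 1 and 0.03 on array 2, so its direction rested on array 1. No mitochondrial gene was called in glucose by limma, against 7.04% of all tested genes in either direction, and 1 had an unadjusted p under 0.05. That gene was MSK1, with ratios of 0.51 and 0.59, the highest of the 34 (mean 0.55 ± 0.18, adjusted p = 0.10). All tested genes were not counted at the unadjusted threshold.

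Between the strains in glycerol, limma called none of the 34 genes. Calls made up 4.12% of all tested genes. Of the 21 cytosolic and dual-compartment genes 4 had an unadjusted p under 0.05, and of the 13 mitochondrial genes 0. The share of all tested genes at that threshold was not counted. The highest means were those of SES1, at 0.70 and 0.43 on the 2 arrays (mean 0.57, adjusted p = 0.084), YHR020W, at 0.66 and 0.41 (mean 0.53, adjusted p = 0.13), and GLN4, at 0.61 and 0.35 (mean 0.48, adjusted p = 0.087). The median of the 21 genes was 0.27 on array 1 and 0.02 on array 2. A fit that ties the 4 comparisons together as a loop called 3 of the 21 genes higher. In this comparison the loop fit called 732 of the 5343 tested genes, in either direction. Whether the 21 genes differ in this from all tested genes was not tested.

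**Figure D5:**
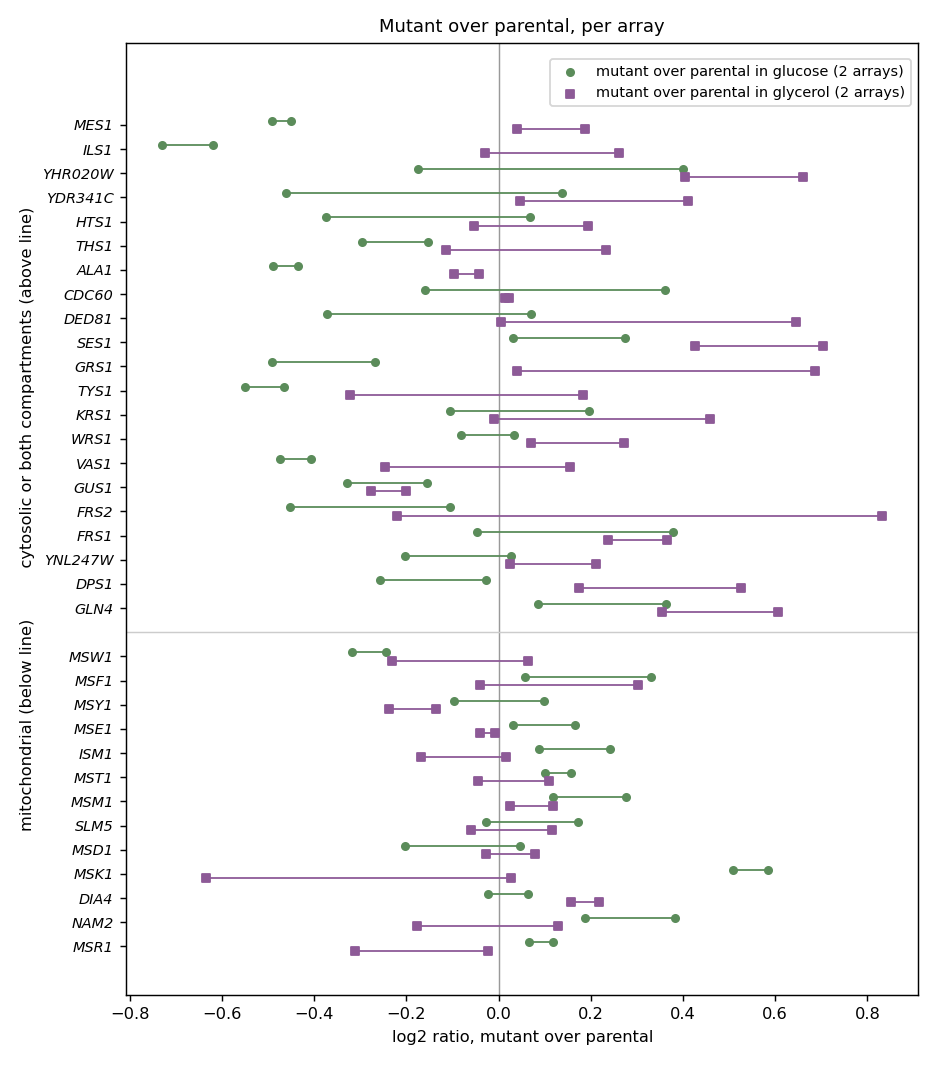
Log2 ratio of mutant over parental (horizontal axis) for the 34 synthetase genes in glucose (circles) and glycerol (squares), with 1 point per array and a line joining the 2 arrays. ILS1 lies lowest in glucose, at -0.73 and -0.62, and the 2 arrays of FRS2 in glycerol are the farthest apart.

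Among the 21 genes are the 5 classed here as supplying both compartments. All 5 fell in both strains' glycerol responses, with medians of -1.36 in the parental strain and -0.90 in the mutant. The other 16 genes had medians of -1.38 and -1.04. In the parental strain HTS1 was the lowest of the 5, at -1.69, and YNL247W, which encodes cysteinyl-tRNA synthetase, was nearest to 0. This difference between the subgroups was not tested.

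Synthetases fall into structural classes I and II, which have unrelated catalytic folds. In the parental glycerol response the 10 class I genes among the 21 had a median of -1.28 and the 11 class II genes -1.46. Among the mitochondrial genes, 4 of 7 in class I and 5 of 6 in class II rose. The subunit genes of cytosolic phenylalanyl-tRNA synthetase fell alike in the parental strain, FRS1 by 1.08 and FRS2 by 1.14. DED81 and YHR020W, which fell by 1.53 and 1.76, lie next to each other on their chromosome.

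Genes that work beside the synthetases were read from 5 lists, chosen with earlier results of these data known. ARC1, a cofactor that binds the methionyl and glutamyl enzymes in the cytosol, fell in both strains, by 0.78 in the parental strain (adjusted p = 0.00042) and by 0.54 in the mutant (adjusted p = 0.0046). In the list of other synthetases and partners, 4 of 8 tested genes rose and 2 fell in the parental strain, and in the mutant 1 rose and 3 fell. These counts stand beside 31.4% higher and 30.5% lower calls among all tested genes in the parental strain, and 24.7% and 21.9% in the mutant, and the same shares apply to the other lists. With spike-in centring each list gene that rose, MEF2 excepted, was below 0. HER2, PET112 and GTF1 encode the amidotransferase that completes glutaminyl-tRNA in mitochondria. HER2 rose by 0.63 and GTF1 by 0.65 in the parental strain, while PET112 was at 0.12 (adjusted p = 0.45).

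GRS2, a paralog of the glycyl-tRNA synthetase gene GRS1, rose by 0.60 in the parental strain and 0.44 in the mutant, opposite to GRS1, which fell by 1.36 and 0.70. AIM10, which resembles prolyl-tRNA synthetases and is thought to act in mitochondria, rose by 0.43 in the parental strain. DTD1, a D-aminoacyl-tRNA deacylase gene, fell in both strains. CCA1, which adds the CCA end of tRNAs, fell by 0.33 in the mutant, a call lost without 1 array in 6 of the 8 cases. FMT1, the mitochondrial formyltransferase gene, was well above background in 3 of 16 channels and was not tested.

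Among genes that sense uncharged tRNA, GCN1 and GCN20 fell in both strains, GCN1 by 0.98 and 0.51 and GCN20 by 0.79 and 0.43. The kinase gene GCN2 and the transcription factor gene GCN4 were not called in any comparison. Of the 3 genes of tRNA export, LOS1 fell by 1.13 and 0.87, MSN5 rose by 0.64 and 0.49, and CEX1 fell by 0.47 in the parental strain. In glucose CEX1 was also called lower in the mutant, at -0.46 (adjusted p = 0.041). This call of CEX1 was lost without 1 array in 8 of the 8 cases, and the mutant glycerol call of MSN5 in 6.

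Of 6 mitochondrial translation factor genes, 5 rose in both strains, and MRF1, a peptide release factor gene, fell by 0.44 in the parental strain. Without 1 array the mutant call of IFM1 was lost in 6 of the 8 cases, and the parental call of MRF1 in 4. MEF2, which encodes a mitochondrial factor of ribosome recycling, had parental ratios of 3.09 and 3.38 and a mean of 1.81 ± 0.14 (SE, n = 2 arrays) in the mutant. Its difference was -1.43 ± 0.20 (SE, adjusted p = 0.024), opposite in sign to that of MES1. Over 16 alternatives this difference ran from -1.82 to -0.60, with adjusted p between 0.0025 and 0.25, and it was called in 10. It was not called with spike-in centring, without either parental array, without mutant array 1, or without either array of the glucose strain comparison. Among all tested genes, 1.87% were called in the difference in either direction. All 6 cytosolic elongation genes fell in the parental strain (median -1.57) and 3 in the mutant (median -0.65), with a median difference of 1.14. Of these, TEF1 and TEF2, and EFT1 and EFT2, are near-identical copies whose probes may share signal, so their separate values are uncertain.

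The authors' deposited table holds 1 combined value per gene and comparison. Its parental glycerol column ran opposite to the scanner ratios (r = -0.964 over genes) and was turned, and its log base is not stated. In the authors' deposited table the medians of the 21 genes were -1.59 in the parental glycerol response and -1.19 in the mutant one, and those of the 13 mitochondrial genes 0.28 and 0.18.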

How the data were processed

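RNA (100 ng) was labelled and hybridised to 8 arrays, per the labels' protocols. The scanner files held median pixel intensity of spots and background, made per the file headers with version 10.10.1.1 of Agilent Feature Extraction. They also held processed intensity, log10 ratios of Cy5 over Cy3 and flags, set by that software per the file headers. The authors deposited a table of combined values taken as log2, for which the submitters' processing notes name limma without a version.

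In R 4.3.3 with limma 3.58.1, median signals (the files hold no mean signals) were corrected with normexp (offset 50) and normalised by loess within arrays, with control and outlier spots at weight 0. Both spots of a gene were averaged. Genes with both spots well above background in every channel of at least 1 of 4 conditions were tested, 5343 of 6256, of which 4718 passed in all 16 channels. Names came from the RefSeq R64 table, which matched 5756 genes and not 500. The fit had 1 coefficient per comparison and 4 residual degrees of freedom, moderated by eBayes, and was tested on simulated data. SEs are from the fit. With 2 arrays per comparison, their number limits the precision.

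Members and lists were chosen with earlier results of these data known. Per comparison, array values were given for the 4 most changed called genes of each class, genes called against their class, genes called in the difference, and the 4 widest oppositely called pairs. Other genes given with values were named after their values were seen. Alternatives were Agilent's log ratios, no offset, median and spike-in centring, other filters, a loop model, a slide row block and leaving out each array. Probe specificity was not analysed here.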

Additional observations from a re-analysis of the deposited data

Results flagged for a closer look

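The decrease of MES1 in glycerol differed between the strains, by 1.04 on the log2 scale in the limma contrast. MEF2, from the list of mitochondrial translation factors, differed the other way, by -1.43, and rose less in the mutant. Neither was called in every alternative: MES1 in 9 and MEF2 in 10 of 16.

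In 5 synthetase genes the strain ratios had one sign on both glucose arrays and the other on both glycerol arrays, and this difference was not tested. They are 14.7% of the 34 genes, against 18.2% of all tested genes with this pattern. As glycerol minus glucose of the log2 strain ratios, it was 0.49 for DPS1, 0.74 for GRS1, 0.59 for MES1, -0.12 for MSE1 and -0.26 for MSR1. The same untested pattern appeared in 5 of 27 tested list genes, with 0.34 for DTD1, 0.57 for CEX1, -0.91 for MEF2, -0.34 for IFM1 and 0.83 for EFT1.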

How the results depend on the processing

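Among 2545 values of single synthetase genes under alternatives other than spike-in centring, 2453 kept their direction and side of the threshold, 58 lost a call, 34 gained one and 0 were called with the other sign. For the 21 cytosolic and dual-compartment genes, the median log2 ratio was also set against that of all genes. Over all 16 alternatives the class median minus the median of all genes ran from -1.73 to -1.35 in the parental glycerol response. In the mutant one it ran from -1.24 to -0.82.

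Spike-in centring moved the median of all genes to -2.17 (parental glycerol response), -1.49 (mutant), -1.57 (strains in glucose), -0.80 (strains in glycerol) and 0.81 (difference), and higher calls to 1.57%, 2.65%, 0.0188%, 0.613% and 99.9% of all calls, from 50.7%, 53.0%, 49.7%, 78.6% and 46%. Calls over all genes then numbered 5144, 4870, 5309, 3918 and 1663. In both glycerol responses 0 mitochondrial genes were higher and 13 lower. In the parental strain the values became -1.87 (MSD1), -1.77 (MSK1), -1.71 (MSM1), -1.55 (MSR1), -1.67 (MST1), -1.82 (ISM1), -1.40 (NAM2), -1.67 (SLM5) and -1.70 (DIA4), and in the mutant -0.87 (MSD1), -0.92 (NAM2), -1.20 (SLM5) and -0.66 (DIA4). List genes called higher in the parental strain became -1.78 (GRS2), -1.31 (AIM10), -1.77 (HER2), -1.74 (GTF1), -1.73 (MSN5), -1.23 (TUF1), -0.99 (MEF1), -1.10 (IFM1) and -1.33 (RRF1), and in the mutant -0.89 (GRS2), -0.86 (MSN5), -0.24 (TUF1), -0.39 (MEF1), -1.22 (IFM1) and -1.15 (RRF1). In the strain comparisons 21 and 8 of the 21 genes and 13 and 12 mitochondrial genes were lower in glucose and glycerol. In the difference 21 of the 21 genes and 1 mitochondrial gene were higher.

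Median centring moved the median of all genes to -0.14 in the parental response and 0.29 in the difference. It left 2 mitochondrial genes higher in the parental strain, 0 genes lower in glucose, 104 calls in glucose and 120 in glycerol over all genes, and 3 of the 21 genes and 293 of all genes in the difference. Agilent's log ratios left 1 gene lower in glucose and 0 of the 21 and 20 of all genes in the difference, and no offset left 1 lower in glucose. Without a filter 2 of the 21 genes were called in the difference. The loop model called 7 mitochondrial genes higher in the mutant, with a median of 0.22, as in the fit with 1 coefficient per comparison. No share of all genes is given here for that count. The loop model also called 5 of the 21 lower in glucose (968 of all genes) and 3 higher in glycerol (732 of all genes). In the difference it called 6 of the 21, 2 mitochondrial (lower) and 1030 of all genes. The cause of these shifts was not tested.

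Leaving out 1 array at a time gave 3 to 9 mitochondrial genes higher and 0 to 1 lower in the parental strain, 1 to 4 higher in the mutant, 0 to 3 of the 21 lower in glucose and 0 to 2 higher in the difference. Over all genes it gave 1453 to 2497 calls in the mutant response, 5 to 368 in glucose, 18 to 281 in glycerol and 0 to 223 in the difference. These fits have fewer arrays, and a lone array is assumed to vary like the others.

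The slide row as a replicate block took MSW1 from the parental lower calls (0 left), MES1 from the difference (0 of the 21 left, adjusted p = 0.061, against 0.00015 to 0.24 over all alternatives) and left 43 of all genes there. Deviations of same-row arrays correlated at 0.763 and 0.137 between comparisons with mutant glycerol or parental glucose RNA on the same side of the ratio, and at -0.449 and -0.246 where mutant glucose or parental glycerol RNA was on opposite sides. The source of these 4 signs was not tested. Comparisons with no condition in common were at -0.286 and -0.0618. Whether rows share extracts is not given in the sources used here. The fit treats arrays as independent, and the row block gives a gene the same row shift in every comparison.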
